A study of Mus musculus with 16 samples.

Results

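Axon guidance in the embryonic forebrain rests in large part on ephrins and their Eph receptors, Slits and their Robo receptors, and netrins with the receptors Dcc, Neo1 and Unc5. Single forebrain cells of CD1 wild-type mouse embryos, an outbred strain, were profiled at embryonic day 15.5. The guidance genes were picked by symbol alone: Efna or Efnb, Epha or Ephb with a number, Slit1 to Slit3, Robo1 to Robo4, Unc5a to Unc5d, Ntn1 to Ntn5, Ntng1, Ntng2, Dcc and Neo1. Of 14498 genes in the matrix, 37 matched. They are 4 ephrin-A ligands (Efna1, Efna2, Efna4 and Efna5), 3 ephrin-B ligands (Efnb1, Efnb2 and Efnb3), 7 EphA receptors (Epha2, Epha3, Epha4, Epha5, Epha7, Epha8 and Epha10) and 5 EphB receptors (Ephb1, Ephb2, Ephb3, Ephb4 and Ephb6). The remainder are 3 Slits, 4 Robos, 3 netrins (Ntn1, Ntn3 and Ntn4), 2 netrin-Gs, 4 Unc5 receptors, Dcc and Neo1.

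Ephrins are held in the membrane of one cell and bind Eph receptor tyrosine kinases on another, so the signal passes by contact, often as repulsion, and can run in both directions. Slits are secreted repellents read by Robo receptors. Netrin-1 draws growth cones in through Dcc and repels them where an Unc5 receptor is present. In the developing forebrain these systems guide corticofugal and callosal axons, sort layers of migrating neurons and steer ventral interneurons on their way to the cortex.

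The 16 samples carry one genotype, strain, tissue and age and no treatment is named, so they form 1 group, and their counts came as 1 pooled matrix. The comparisons are therefore between cell classes inside the pool. It holds 5777 cells with a median of 3258 UMIs (unique molecular identifiers, 1 for each captured RNA molecule), and 4 cells with over 10% globin UMIs were set apart. Cell names are a running number with no sample or barcode, so no replicate can be separated, no test was run, and every interval covers counting error only. Apart from 4 cells between them, the cells form 2 runs whose origin the labels do not give: 3647 up to the last cell with a Y-linked UMI, and 2122 from the first cell with UMIs of 11 genes listed out of alphabetical order. Values in each run are given beside the leading results.

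Cells were grouped into 25 clusters without the guidance genes, and 21 clusters took a name from markers. The excitatory lineage gave 676 radial glia-like cells (neural stem cells of the ventricular wall), 354 intermediate progenitor-like, 970 migrating excitatory neuron-like, 1058 deep layer neuron-like and 242 upper layer neuron-like cells. The last 2 classes together are called excitatory neuron-like. Ventral classes were 482 ganglionic eminence progenitor-like, 482 Lhx6 interneuron-like (the interneurons of the comparisons), 283 striatal neuron-like and 314 basal forebrain neuron-like cells. All 16 radial glia markers, 9 of 10 deep layer markers and 7 of 10 upper layer markers stood higher in the class they name. The same markers gave the classes their names, so this is not an independent check. Of the upper layer neuron-like cells 220 of 242 lay in the second run, while 265 of 283 striatal neuron-like and 448 of 482 ganglionic eminence progenitor-like cells lay in the first. In the main neural classes the 7 endothelial markers together stayed at or under 8.07 CPM (UMIs per 1000000 UMIs of the class), against 2407 CPM in the meningeal cluster.

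The guidance genes gave 61449 UMIs, 0.285% of the total, with a median of 9 UMIs from 5 of the genes in a cell, and 98.4% of cells had at least 1. Of the 37 genes 30 reached 50 UMIs over all cells. The 7 below that were Epha8 (44), Robo3 (43), Epha2 (20), Robo4 (20), Ntng2 (12), Ntn4 (11) and Epha10 (5). Levels in CPM are sums over all cells of a class, and they are compared for a gene between classes, never between genes. Microglia-like cells, which should lack most neuronal receptors, serve as a guide to stray RNA: 18 cells held 0 UMIs of Robo1 and of Unc5d, and their 7 Dcc UMIs all lay in 1 cell. They also held 8 UMIs of Efnb2 (113.5 CPM), 6 of Epha5 (85.2 CPM), and 5 each of Ephb1 and Robo2. For Robo2 that is 70.96 CPM (23.0 to 166), beside which lie 75.2 CPM in deep layer neuron-like and 27.3 CPM in radial glia-like cells. Ephb1 had the same level and interval in microglia-like cells. Beside it lie 25.9 CPM in upper layer neuron-like, 21.2 CPM in migrating and 16.01 CPM in Lhx6 interneuron-like cells. For both genes the microglia-like level rests on 5 UMIs and lies above that of some larger classes. After each cell was thinned to an equal depth, as described below, 5.56% of the 18 cells had a Robo2 UMI. The microglia-like level therefore does not give a stray level for all classes. The part of stray RNA in low levels of Robo2 and of Ephb1, and in folds that rest on them, was not tested.

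**Figure D1:**
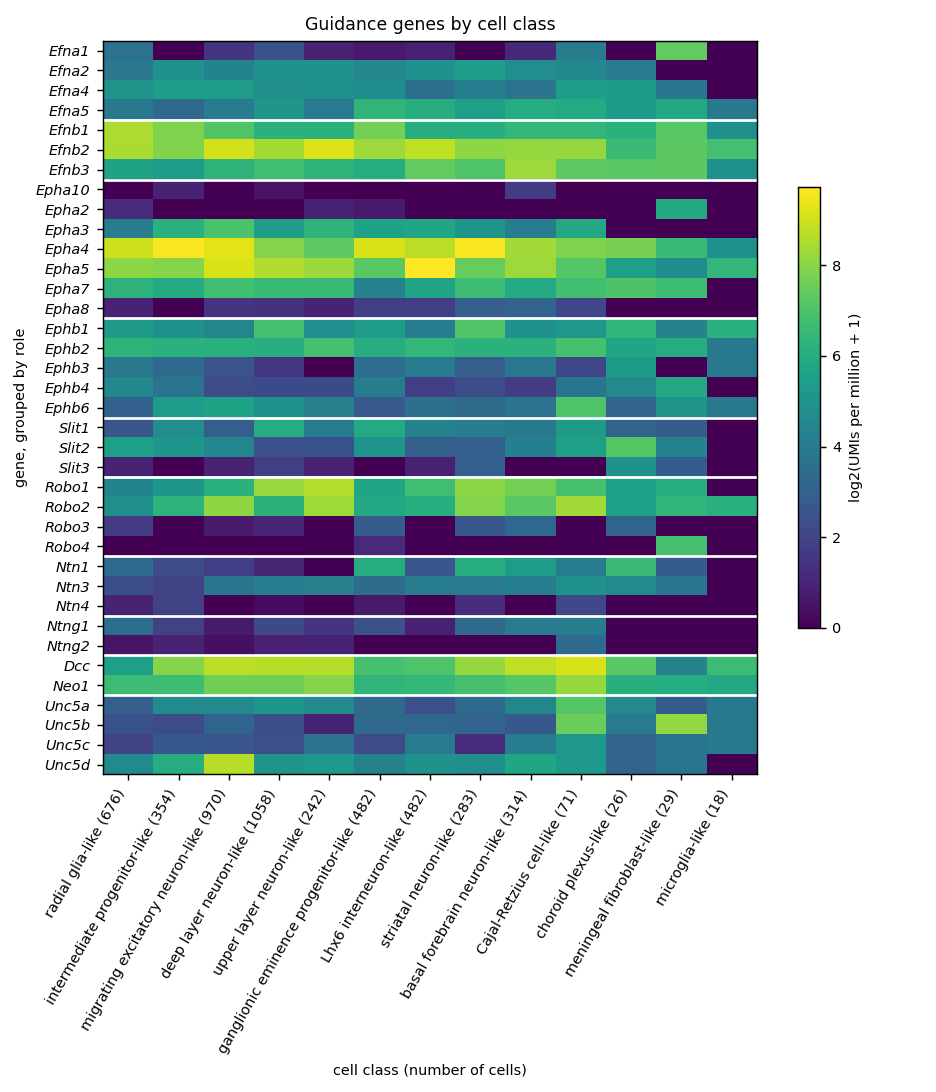
Level of each of the 37 guidance genes (rows, grouped by role and split by white lines) in 13 cell classes (columns, number of cells in brackets), as log2(CPM + 1). Unc5d is brightest in migrating neurons, Robo1 in upper layer neuron-like cells and Epha5 in Lhx6 interneuron-like cells, and Robo4 is brightest in the meningeal column.

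The promoters of Robo1, Robo2 and Efnb1 are shown as those of 3 genes whose contrasts are described below: both Robo genes stand higher in excitatory neurons and Efnb1 stands higher in radial glia. Dcc, Slit1 and Unc5d have no entry in the promoter table. Each is the 300-base RefSeq window (GRCm38.p6) from 250 bases before to 50 after a start of the gene, printed 5′ to 3′ on the gene's strand. Robo1 and Efnb1 have 1 window each. The Robo1 window lies inside the gene span given below, away from its 5′ end, so it does not describe the sequence at that end. Robo2 has 3, and the one printed was picked because it holds CAGCTG, so its E-box and GC content do not describe the other Robo2 windows. Robo1 and Robo2 lie on chromosome 16, on opposite strands (Robo1 at 72308306 to 73046095, Robo2 at 73891839 to 74411825 in GENCODE M21 on the same assembly). Capitals mark the E-box CAGCTG, a word that bHLH factors are known to bind.
Robo1, chr16:72662899-72663198, plus strand: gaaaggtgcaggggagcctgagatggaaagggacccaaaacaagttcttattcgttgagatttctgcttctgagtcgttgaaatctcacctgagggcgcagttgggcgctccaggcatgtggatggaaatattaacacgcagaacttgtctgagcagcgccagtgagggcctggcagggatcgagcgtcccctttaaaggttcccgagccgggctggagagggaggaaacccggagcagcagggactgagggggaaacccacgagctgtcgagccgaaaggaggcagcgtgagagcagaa
Robo2, chr16:74411776-74412075, minus strand: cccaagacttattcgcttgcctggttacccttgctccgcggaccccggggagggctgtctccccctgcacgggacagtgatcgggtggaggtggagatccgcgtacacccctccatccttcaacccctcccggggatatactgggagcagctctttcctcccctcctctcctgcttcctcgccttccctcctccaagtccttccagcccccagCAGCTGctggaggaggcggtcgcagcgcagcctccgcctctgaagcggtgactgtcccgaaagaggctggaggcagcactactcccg
Efnb1, chrX:99135811-99136110, plus strand: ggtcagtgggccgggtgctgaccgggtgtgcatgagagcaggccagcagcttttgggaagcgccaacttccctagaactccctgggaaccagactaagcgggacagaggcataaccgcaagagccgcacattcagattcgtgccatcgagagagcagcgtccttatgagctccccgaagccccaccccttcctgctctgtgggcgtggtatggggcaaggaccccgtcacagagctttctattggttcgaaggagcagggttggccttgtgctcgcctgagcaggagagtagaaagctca

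The GC content of these windows was 57% for Robo1, 65% for Robo2 and 59.7% for Efnb1, against a median of 52.7% over 32851 windows. Of the 37 genes 32 are in the table. CAGCTG, which reads the same on both strands, was in a window of 4 of the 32 (Epha10, Ephb3, Robo2 and Robo4), against 18.3% of 27025 genes. CAGATG or its reverse complement CATCTG was in 1 of the 32, Ntng2, against 19.2% of genes. A match is a description of the letters in the window and not a bound site.

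Excitatory neuron-like cells differed from radial glia-like cells in 17 of the 23 guidance genes that could be measured. The Slit receptor Robo1 was 15.7-fold higher in the neurons, its ligand Slit1 11.2-fold and the netrin receptor Dcc 9.23-fold. The ephrin-B ligand Efnb1 was 4.995-fold lower and Slit2 10.2-fold lower. A gene was counted when both classes together gave 50 UMIs or more, and 23 of the 37 qualified. Of these 13 were at least 1.5-fold higher and 4 at least 1.5-fold lower, that is 56.5% and 17.4%. Over all 10257 genes measured the same limits took in 23.0% higher and 30.2% lower. The median log2 ratio was 1.04 over the 23 genes and -0.14 over all genes.

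Among ligands, Efnb1 stood at 72.8 CPM in excitatory neuron-like cells and 363.5 CPM in radial glia-like cells (95% interval of the fold 4.44 to 5.63). In the first run these values were 77.5 and 411 CPM, and in the second 68.0 and 312 CPM, so the neurons were low in both. Slit2 was at 4.26 CPM in the neurons and 43.5 CPM in radial glia-like cells (fold lower 6.52 to 16.5). Slit1 showed the opposite order, 55.1 CPM in the neurons and 4.93 CPM in radial glia-like cells (6.16 to 22.6), with 11 UMIs behind the lower value. Efnb3 was 2.14-fold higher, Efna2 2.10-fold, Efna5 2.06-fold and the netrin Ntn3 4.18-fold. Efnb2, also an ephrin-B ligand, stood at 388 CPM in the neurons and 357 CPM in radial glia-like cells, within the 1.5-fold limits.

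Among receptors, Robo1 stood at 318 CPM in excitatory neuron-like cells and 20.2 CPM in radial glia-like cells (interval of the fold 11.7 to 21.7). It was 309.7 against 19.9 CPM in the first run and 325 against 20.5 CPM in the second, high in the neurons both times. Dcc stood at 409.6 CPM in the neurons and 44.4 CPM in radial glia-like cells (7.55 to 11.4). The second Robo, Robo2, was 4.44-fold higher (122 against 27.3 CPM), the repulsive netrin receptor Unc5a 4.82-fold (32.4 against 6.72 CPM) and the Dcc relative Neo1 2.05-fold (206 against 100.4 CPM). Eph receptors were higher as well: Ephb6, which lacks kinase activity, 3.76-fold, Epha3 2.91-fold and Ephb1 2.64-fold. Lower in the neurons were Ephb4, the receptor best known from veins, 6.14-fold on 21 and 49 UMIs, and Epha4, a receptor for both ephrin classes, at 226 against 507 CPM (2.24-fold, 2.07 to 2.43). All 17 called genes kept their direction in both runs.

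**Figure D2:**
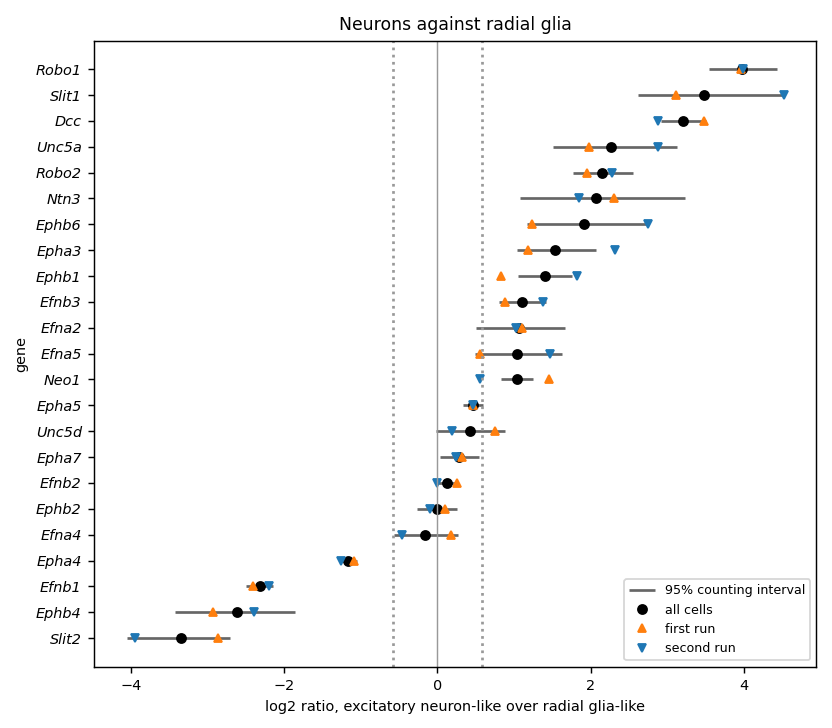
Log2 ratio of excitatory neuron-like over radial glia-like cells (x axis) for the 23 guidance genes measured (y axis), with all cells as black points, 95% counting intervals as bars, and the first and second run as triangles. Dotted lines mark 1.5-fold. Robo1, Slit1 and Dcc lie farthest to the right and Slit2, Ephb4 and Efnb1 farthest to the left, on the same side in both runs.

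Genes that act with these receptors were counted in lists. Of 13 partners and effectors of Slit and Robo 7 were higher and 4 lower, led by the Robo-binding protein Srgap1 (118 against 28.2 CPM, 4.17-fold higher) and the adaptor Nck1 (13.1 against 49.8 CPM, 3.79-fold lower). Of 21 netrin receptor partners and effectors 13 were higher and 3 lower. There the netrin co-receptor Dscam was 21.0-fold higher (113 against 5.38 CPM, 12 UMIs in radial glia-like cells) and the adhesion molecule Mcam 53.0-fold lower (1.02 against 54.2 CPM, 6 UMIs in the neurons). Mcam and Ephb4 are also made by vascular cells, and the 6 markers of mural cells summed to 3.58 CPM in the neurons and 50.7 CPM in radial glia-like cells; their part in both ratios was not tested. Of 14 measured Eph and ephrin effectors 8 were higher and 1 lower. The Rac exchange factor Vav3 was 11.98-fold higher on 63 UMIs in the neurons and 2 in radial glia-like cells (interval 3.18 to 101.1), and the adaptor Grb10 22.1-fold lower (30.3 against 670.1 CPM). The median log2 ratios of these lists were 0.65, 0.90 and 1.36, against -0.14 over all genes. Over all genes 23.0% were higher and 30.2% lower, so the 4 of 13 Slit and Robo partners that were lower lay near that share.

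With Leiden resolution 0.5 the ratio of Robo2 was 1.20 and that of Epha3 1.35. There the excitatory class was 484 deep layer neuron-like cells with no upper layer class, and it held 37.2% of the cells of the main class. With clusters drawn on 50% of the UMIs the ratio of Ephb1 was 1.34 and that of Efna5 0.901. Neo1 stood at 1.47-fold in the second run alone, and the other 12 called genes stayed past 1.5-fold under each alternative that gave a value.

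The step from radial glia-like to intermediate progenitor-like cells, the neurogenic basal progenitors, already showed part of this pattern. Of 19 measured genes 8 were at least 1.5-fold higher and 3 lower, against 13.8% higher and 21.5% lower over all genes. The median log2 ratio was only 0.02 over the 19 genes and -0.05 over all genes. Dcc was the leading gene at 249 CPM in intermediate progenitor-like cells and 44.4 CPM in radial glia-like cells (5.61-fold, 4.44 to 7.13). The run values were 216 against 44.0 CPM and 279 against 44.7 CPM, high in the progenitors both times. Ephb6 was 5.59-fold higher (40.1 against 7.17 CPM), Epha3 4.40-fold (73.0 against 16.6 CPM), Robo2 2.83-fold (77.5 against 27.3 CPM) and Unc5d 2.68-fold (64.7 against 24.2 CPM). Efna2 was 2.10-fold, Robo1 1.67-fold and Epha4 1.54-fold higher, the last against its direction in the excitatory neuron-like cells. Efnb1 (1.59-fold), Efnb2 (1.53-fold) and Ephb4 (1.85-fold, on 13 and 49 UMIs with an interval of 0.990 to 3.72) were lower. The 11 called genes kept their direction in both runs. Efnb2, Efnb1, Epha4 and Robo1 came under 1.5-fold in at least 1 alternative, with lowest values of 1.03, 1.10, 1.18 and 1.28. Past 1.5-fold stood Efnb2 in 4, Efnb1 in 8 and Epha4 in 9 of 13 alternatives, and Robo1 in 9 of the 10 that gave a value.

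Migrating excitatory neuron-like cells, young neurons on the way to the cortical plate, were set apart by Unc5d. This repulsive netrin receptor, which also binds Flrt proteins, stood at 413 CPM in migrating cells and 64.7 CPM in intermediate progenitor-like cells (6.38-fold, 5.02 to 8.21). In the first run the values were 334 and 36.1 CPM and in the second 518 and 91.2 CPM. Kept out of the clustering, Unc5d still was among the 20 leading genes of both migrating clusters. Of 21 measured genes 11 were at least 1.5-fold higher and 3 lower, against 12.5% higher and 13.9% lower over all genes, and the median log2 ratio was 0.77 against -0.07.

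Robo2 followed at 273 against 77.5 CPM (3.52-fold, 2.82 to 4.46), with Robo1 at 73.6 against 33.7 CPM (2.18-fold). Among Eph receptors Epha5, a receptor for ephrin-A ligands, was 2.28-fold higher (558 against 245 CPM), and Epha7 and Epha3 1.73-fold and 1.72-fold. The ephrin-B ligands differed in direction: Efnb2 stood at 538 against 233 CPM (2.31-fold higher) and Efnb3 at 79.8 against 39.2 CPM (2.04-fold higher), while Efnb1 stood at 133 against 229 CPM (1.72-fold lower). Neo1 was 1.89-fold higher, Efna5 1.75-fold on 52 and 10 UMIs, and Dcc 1.71-fold (425 against 249 CPM). Both measured Slits were lower, Slit1 3.92-fold on 22 and 29 UMIs and Slit2 1.59-fold. The 14 called genes kept their direction in both runs. In this comparison 9 of the 14 came under 1.5-fold in at least 1 alternative. The lowest values were 1.41 for Robo1, 1.39 for Neo1, 1.38 for Slit2, 1.19 for Efnb3, 1.08 for Epha3 and, with 1000 variable genes, 1.29 for Unc5d. A ratio of 0.733 for Epha7 with 1000 variable genes, 0.811 for Dcc at resolution 0.5 and 0.328 for Efna5 with 15 principal components lay in the other direction. Epha7 stood past 1.5-fold in 4 and Dcc in 9 of 13 alternatives, and Efna5 in 4 of the 9 that gave a value. Robo2, Epha5, Efnb1, Efnb2 and Slit1 stayed past 1.5-fold in every alternative that gave a value.

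The migrating cells formed a cluster led by Tac2 and Neurod1 (499 cells) and one led by Pdzrn3 (471 cells), and they were compared after their values had been seen. Of 20 measured genes 1 was at least 1.5-fold higher in the Pdzrn3 cluster and 7 lower, against 7.3% higher and 10.7% lower over all genes. Robo1, the higher one, stood at 104 CPM in the Pdzrn3 cluster and 41.9 CPM in the Tac2 cluster. Dcc, one of the 7 lower, was at 268 CPM in the Pdzrn3 cluster and 588 CPM in the Tac2 cluster, and Epha4, another, at 506 against 766 CPM. The other 5 were Efnb1, Epha7, Ephb1, Ephb6 and Slit2. Within the 1.5-fold limits lay Efnb2, at 642 against 430.2 CPM, and Unc5d, at 350.1 against 478 CPM. In both runs the order was the same for the 5 genes with values here, for Dcc 305 against 599 CPM in the first and 215 against 576 CPM in the second.

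Unc5d and Dcc were then looked at in single cells. After each cell was thinned to 1000 UMIs, 31.6% of 970 migrating cells had an Unc5d UMI (Clopper-Pearson 95% interval 28.6 to 34.6) and 28.7% a Dcc UMI, and 9.38% had both. Dcc was seen in 29.7% of the cells with Unc5d and 28.2% of the other migrating cells. Without thinning the shares were 58.3% for Unc5d and 53.5% for Dcc. Microglia-like cells, at a median of 3880 UMIs against 3078 in migrating cells, gave 0 of 18 cells with Unc5d. The limit set for a count of 0 was 3 cells, here 16.7%, and is not a Clopper-Pearson bound. Radial glia-like cells gave 1.63%.

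Excitatory neuron-like cells of the deep and upper layer classes had far less Unc5d than migrating cells, at 32.4 against 413 CPM (12.7-fold lower, 10.9 to 14.9). It was 27.5 against 334 CPM in the first run and 37.3 against 518 CPM in the second. Over 13 alternatives the fold ranged from 10.07 to 19.98. Of 22 measured genes 4 were at least 1.5-fold higher and 8 lower, against 15.4% higher and 12.4% lower over all genes. The median log2 ratio was -0.13 over the members and -0.02 over all genes.

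Slit1 was the leading gene in the other direction, at 55.1 CPM in excitatory neuron-like and 6.75 CPM in migrating cells (8.15-fold, 5.29 to 13.2), followed by Ephb1 at 94.6 against 21.2 CPM (4.47-fold) and Robo1 at 318 against 73.6 CPM (4.31-fold). Efna5 was 1.85-fold higher, but its ratio was 0.990 with 1000 variable genes. Among the genes lower in the older neurons were Slit2 (4.97-fold), Epha4 (226 against 634 CPM, 2.81-fold), Epha3 (48.2 against 125 CPM, 2.60-fold) and Robo2 (122 against 273 CPM, 2.25-fold). Efnb1 (1.83-fold), Ephb6 (1.80-fold) and Epha5 (1.53-fold) completed the 8, and each of these 3 came under 1.5-fold in at least 1 alternative. Dcc stood at 409.6 CPM in the older neurons and 425 CPM in migrating cells, a ratio of 0.964 with an interval of 0.902 to 1.03. All 12 called genes kept their direction in both runs.

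Along the lineage as a whole the genes thus peaked at different classes. Efnb1 stood at 363.5 CPM in radial glia-like, 229 in intermediate progenitor-like, 133 in migrating, 73.3 in upper layer and 72.7 CPM in deep layer neuron-like cells. Epha4 was at 507, 779.6, 634, 159 and 242 CPM over the same classes in that order, with its highest level in intermediate progenitor-like cells. Robo1 was at 20.2, 33.7, 73.6, 392 and 300.1 CPM, lowest in radial glia-like and highest in upper layer neuron-like cells.

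**Figure D3:**
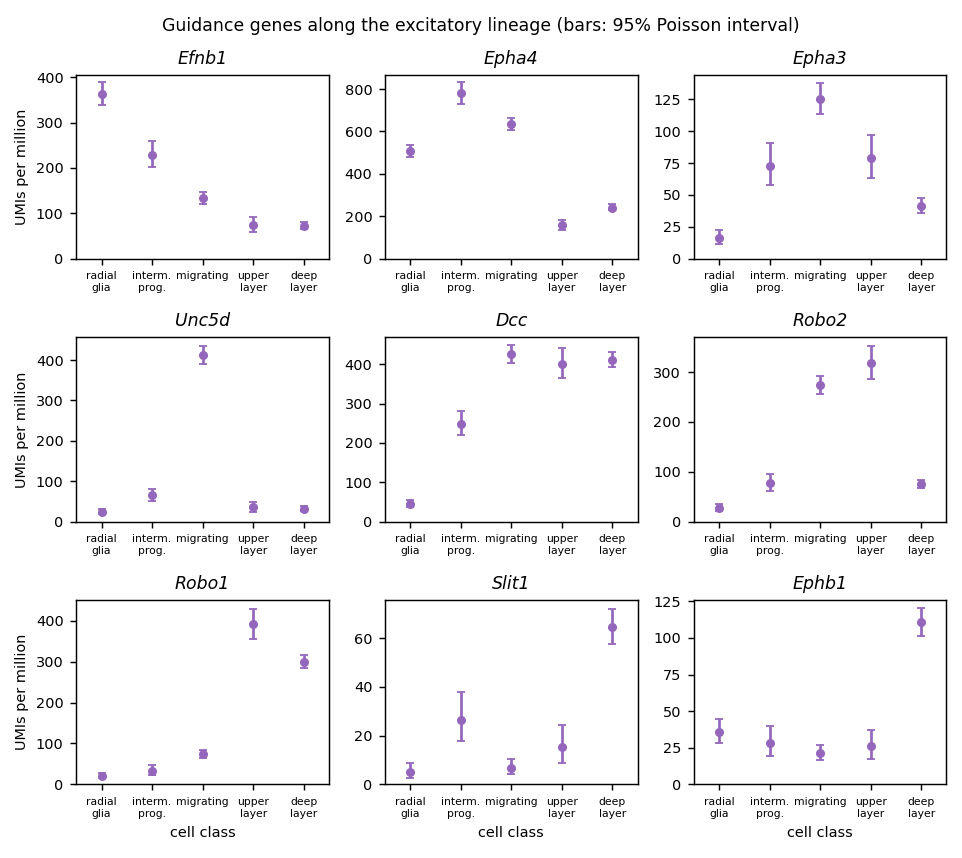
Levels of 9 guidance genes in CPM (y axes, each from 0) in 5 classes of the excitatory lineage (x axes), with 95% Poisson intervals as bars. Efnb1 is highest in radial glia-like cells, Epha4 in intermediate progenitor-like, Epha3 and Unc5d in migrating cells, Robo1 and Robo2 in upper layer and Slit1 and Ephb1 in deep layer neuron-like cells.

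The 2 layer classes differed by a short list. Upper layer neuron-like cells, whose later callosal and intracortical axons stay in the cortex, had 4.24-fold more Robo2 than deep layer neuron-like cells, many of which project below the cortex, at 318 against 75.2 CPM (3.65 to 4.92). The run values were 325 against 85.7 CPM and 318 against 59.4 CPM. Epha3 was 1.92-fold higher (78.7 against 41.1 CPM), Efnb2 1.76-fold (596 against 339 CPM) and Ephb2, a receptor of ephrin-B ligands, 1.68-fold (115 against 68.9 CPM). Lower in the upper layer class were Ephb1 (25.9 against 110.8 CPM, 4.27-fold), Slit1 (15.2 against 64.4 CPM, 4.24-fold), Efna5 (15.2 against 32.9 CPM, 2.16-fold), Ephb6 (1.63-fold) and Epha4 (1.52-fold). That made 4 higher and 5 lower of 21 measured genes, against 5.17% higher and 14.2% lower over all genes. Robo1 was high in both, at 392 CPM in upper layer and 300.1 CPM in deep layer neuron-like cells, a ratio of 1.31 that did not reach 1.5-fold.

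The first run held 22 upper layer neuron-like cells, with 0 UMIs of Efna5, Ephb6 and Ephb1, and gave no direction for Efna5 and Ephb6. The other 7 genes kept their direction in both runs, Slit1 at 1.29-fold lower in the first. Robo2, Epha3, Efnb2, Ephb1 and Efna5 stayed past 1.5-fold in every alternative that gave a value.

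Deep layer neuron-like cells varied among themselves. A cluster led by Hs3st4, a gene of corticothalamic neurons (395 cells), was set beside the larger cluster with Fezf2 and Sox5 among its leading genes (574 cells), again after their values had been seen. Of 21 measured genes 3 were at least 1.5-fold higher in the Hs3st4 cluster (Epha7, Ephb1 and Slit1) and 5 lower (Dcc, Efna4, Efnb2, Robo2 and Unc5d), against 8.09% higher and 8.37% lower over all genes. Epha7 stood at 161 CPM in the Hs3st4 cluster and 53.6 CPM in the larger one, and Ephb1 at 151 against 80.8 CPM. Robo2 stood at 35.5 against 99.0 CPM, Dcc at 264 against 493 CPM and Robo1, within the 1.5-fold limits, at 243 against 338 CPM. The order held in both runs for these 5, with Epha7 at 159 against 60.2 CPM in the first and 164 against 42.5 CPM in the second. The remaining cluster of 89 cells at a median of 1560 UMIs held the highest levels of Slit1 (185 CPM, 123 to 267) and Ephb1 (237 CPM, 166 to 329) of all 25 clusters.

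Robo1 and Robo2 were seen together in 6.61% of upper layer neuron-like cells. In thinned upper layer neuron-like cells 31.8% had a Robo1 UMI and 30.6% a Robo2 UMI. Robo2 was seen in 20.8% of the 77 cells with Robo1 and 35.2% of the rest. In deep layer neuron-like cells the same shares were 6.09% of 279 cells with Robo1 and 5.65% of the rest. Without thinning Robo1 was in 73.1% of upper layer and 57.6% of deep layer neuron-like cells, and in thinned radial glia-like cells in 2.37%.

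Ventral progenitors of the ganglionic eminences, the source of striatal neurons and interneurons, were next set against the radial glia-like cells. Ligands had the highest ratios. Slit1 stood at 60.01 CPM in ganglionic eminence progenitor-like and 4.93 CPM in radial glia-like cells (12.2-fold, 6.51 to 25.2), Ntn1, which encodes netrin-1, at 63.7 against 9.41 CPM (6.77-fold, 4.20 to 11.4) and Efna5 at 81.7 against 14.3 CPM (5.69-fold, 3.85 to 8.66). Epha3 (2.87-fold), Dcc (2.62-fold), Robo1 (2.55-fold), Robo2 (2.10-fold) and Efna2 (1.56-fold, 0.933 to 2.61) were also higher. Epha7 was 3.996-fold lower (19.2 against 76.7 CPM), Epha5 1.78-fold lower (149 against 265 CPM) and Efnb1 1.75-fold lower (208 against 363.5 CPM). Of 21 measured genes 8 were thus higher and 3 lower, against 10.1% higher and 14.5% lower over all genes. The ventral class included a dividing cluster led by Dlx2 and Top2a (208 cells). A dividing cluster that raised all 16 radial glia markers (230 cells) stayed unnamed and outside the radial glia-like class. The part of cell division in these ratios was not tested.

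The second run held 33 of these ventral progenitors, and there Dcc, Efna2 and Efna5 lay on the other side, with Efna5 at 8.26 against 13.1 CPM. Slit1 was 8.02-fold and 17.7-fold higher and Ntn1 4.86-fold and 13.3-fold in the first and second run, the second-run folds on 4 against 2 UMIs for Slit1 and 9 against 6 for Ntn1. Within the class Ntn1 stood at 97.6 CPM in the Olig2 and Gsx2 cluster and 23.1 CPM in the dividing Dlx2 and Top2a cluster. With 15 principal components its ratio was 0.372, and with clusters drawn on 50% of the UMIs it also lay in the other direction. Slit1, Robo1 and Epha7 stayed past 1.5-fold in every alternative that gave a value.

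Lhx6 interneuron-like cells, which leave the medial eminence for the cortex, stood out by Epha5, at 842 CPM against 149 CPM in ganglionic eminence progenitor-like cells (5.67-fold, 4.92 to 6.56). It was 6.05-fold higher in the first run (881 against 145 CPM) and 4.17-fold in the second. After thinning 46.3% of the 482 interneuron-like cells had an Epha5 UMI, the highest share of any class, against 11.6% of the progenitors. Unthinned shares were 69.5% and 27.8%. In microglia-like cells 2 of 18 cells (11.1%) had one. Ntn1 went the other way, at 5.06 against 63.7 CPM (12.6-fold lower, 5.597 to 35.1) on 6 and 103 UMIs.

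Efnb3 (166 against 63.1 CPM, 2.63-fold), Epha7 (2.59-fold), Robo1 (105 against 51.4 CPM, 2.05-fold) and Unc5d (1.63-fold, 0.981 to 2.71) were also higher in the interneurons. Slit2 (4.68-fold), Efnb1 (64.9 against 208 CPM, 3.20-fold), Slit1 (19.4 against 60.01 CPM, 3.10-fold), Ephb1 (2.55-fold) and Efna4 (2.32-fold) were lower. That made 5 higher and 6 lower of 20 measured genes, against 19.6% higher and 25.3% lower over all genes. Unc5d turned below 1 in the second run, and the other 10 kept their direction in both and stayed past 1.5-fold in every alternative that gave a value. Clusters named as Sp8 interneurons, absent from the main clustering, were counted as interneuron-like where an alternative gave them. At resolution 2 the class thus held 648 cells, 481 of them Lhx6 interneuron-like, and with 1000 variable genes 792, 507 of them Lhx6 interneuron-like. Those alternatives therefore cover a wider mix of cells. Summed markers of ganglionic eminence progenitors were at 1710 CPM in the interneurons and 3119 CPM in the progenitors, and their part in these ratios was not tested.

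The interneurons formed 2 clusters, compared after their values had been seen, and Epha4 differed between them. It stood at 955 CPM in a cluster led by Dlx1as, Arl4d and Npy (182 cells, 171 of them in the first run) and 141 CPM in a cluster led by Sst and Nxph2 (300 cells, 117 in the first run), with intervals of 863 to 1055 and 116 to 170. The order was the same within each run, 974.5 against 118 CPM in the first and 606 against 157 CPM in the second, where the first-named cluster had 11 cells. Epha5 was at 815 CPM and 856 CPM in the same clusters. Of 13 measured genes 4 were at least 1.5-fold higher in the first-named cluster (Efna5, Efnb1, Epha4 and Robo1) and 1, Efnb3, lower, against 11.2% higher and 15% lower over all genes.

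Striatal neuron-like cells were set against the same ventral progenitors. Epha7 was 5.32-fold higher (101.9 against 19.2 CPM, 3.46 to 8.35), Robo1 5.03-fold (258 against 51.4 CPM), Robo2 4.14-fold (238 against 57.5 CPM), Ephb1 3.28-fold (134 against 40.8 CPM) and Dcc 2.49-fold (290.0 against 116 CPM). Efnb3 was 2.08-fold and Efna2 1.90-fold higher. Lower were Slit2 4.77-fold on 5 and 51 UMIs, Slit1 3.78-fold, Efnb1 3.02-fold and Efna5 1.87-fold. Of 20 measured genes 7 were higher and 4 lower, against 17.7% higher and 23.8% lower over all genes. Ntn1 remained at 68.9 CPM in striatal neurons and 63.7 CPM in the progenitors.

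Set against Lhx6 interneuron-like cells, the other ventral neurons, striatal neuron-like cells had 13.6-fold more Ntn1 (68.9 against 5.06 CPM, 5.85 to 38.8) and 8.35-fold more Ephb1 (134 against 16.01 CPM, 5.08 to 14.4). Robo2 (238 against 69.1 CPM, 3.45-fold), Robo1 (2.45-fold), Dcc (2.22-fold), Epha7 (2.05-fold) and Epha4 (794 against 424 CPM, 1.87-fold) were higher too. Epha5 was 4.78-fold lower (176 against 842 CPM, 3.99 to 5.77), Efnb2 1.65-fold, Epha3 1.52-fold and Efna5 1.504-fold lower. Of 17 measured genes 7 were higher and 4 lower, against 9.53% higher and 10.4% lower over all genes. The median log2 ratio was 0.43 over the members and 0.01 over all genes.

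The second run held 18 striatal neuron-like cells, so both striatal comparisons rest on the first run, where all their called genes kept the direction given. In those 18 cells Ephb1 and Robo2 were lower than in the progenitors, and Robo1 was at 103.9 CPM against 107 CPM in interneuron-like cells. Against the interneurons Epha4, Efnb2, Epha3 and Efna5 came under 1.5-fold in at least 1 alternative. In that order they stood past it in 8, 9, 7 and 6 of the 12 alternatives that gave a value. Efna5 had a ratio above 1 at resolution 2. At that resolution the interneuron-like class held 648 cells, of which 481 were Lhx6 interneuron-like. In the first run Ntn1 was at 72.6 against 8.60 CPM and Epha5 at 176 against 881 CPM between striatal and interneuron-like cells, and Epha4 was at 756 against 598 CPM, 1.27-fold.

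**Figure D4:**
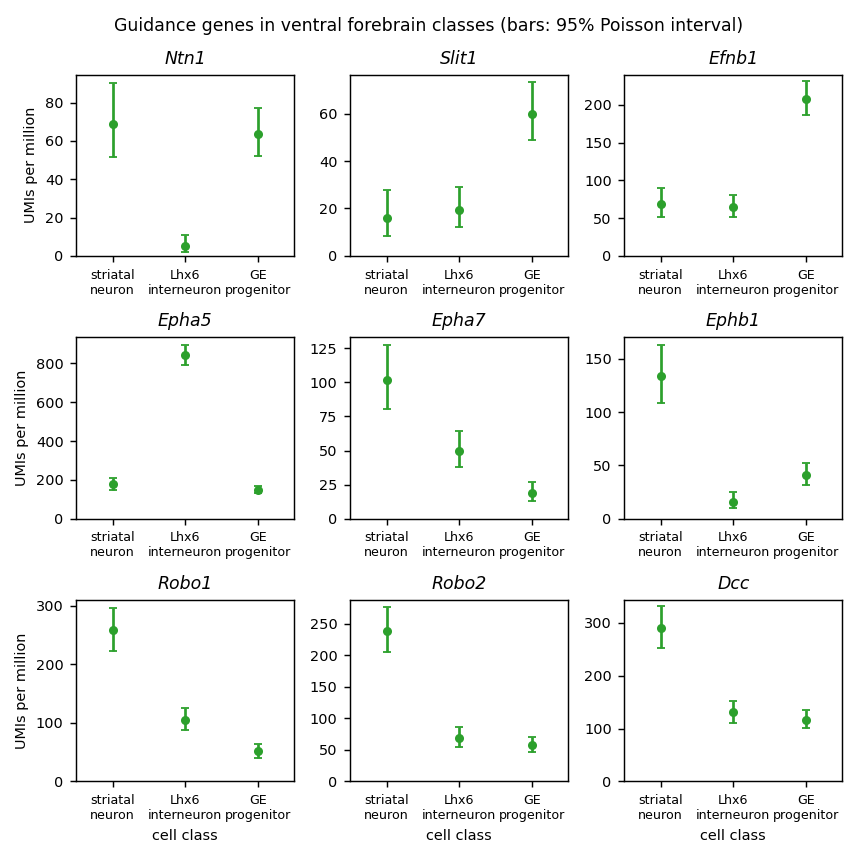
Levels of 9 guidance genes in CPM (y axes, each from 0) in striatal neuron-like, Lhx6 interneuron-like and ganglionic eminence (GE) progenitor-like cells (x axes), with 95% Poisson intervals as bars. Ntn1 is low in interneurons only, Epha5 is high in interneurons only, and Slit1 and Efnb1 are highest in the progenitors.

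The lists of Slit and Robo, netrin and Eph partners were counted in the other 8 comparisons as well. The largest counts were in interneuron-like over ganglionic eminence progenitor-like cells, where 6 of 13 Slit and Robo partners were higher and 2 lower, 8 of 16 netrin partners higher and 3 lower, and 6 of 13 Eph effectors higher and 2 lower, where 19.6% of all genes were higher and 25.3% lower. In striatal over ganglionic eminence progenitor-like cells 8 of 16 netrin partners were higher and 1 lower, where 17.7% of all genes were higher and 23.8% lower.

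Several members too sparse for these comparisons stood out in small classes instead. In 29 meningeal fibroblast-like cells, whose cluster also held endothelial markers at 2407 CPM and mural markers at 1477 CPM, Unc5b, a netrin receptor known from vessels, stood at 280.1 CPM (44 UMIs, 204 to 376) against 9.28 CPM in ganglionic eminence progenitor-like cells. Efna1, an ephrin-A ligand, stood there at 166 CPM (26 UMIs) against 11.2 CPM in radial glia-like cells. The endothelial Robo4 gave 18 of its 20 UMIs in this cluster, and Epha2 gave 9 of its 20.

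In 71 Cajal-Retzius cell-like cells, the Reln-expressing pioneers of the cortical surface, Unc5b was at 181 CPM (57 UMIs, 137 to 235), Unc5a at 140.0 CPM (44 UMIs) and Ephb6 at 130.4 CPM (41 UMIs). Dcc stood at 566 CPM (486 to 656) against 409.6 CPM in excitatory neuron-like cells, and Unc5c at 35.0 CPM on 11 UMIs. In 26 choroid plexus-like cells the ligands Slit2 (144 CPM, 19 UMIs) and Ntn1 (98.2 CPM, 13 UMIs) were seen, with Slit3 at 30.2 CPM on 4 UMIs. In basal forebrain neuron-like cells Efnb3 stood at 314 CPM (279 to 353) against 101 CPM in excitatory neuron-like cells. This class depends on the clustering: other clusterings gave its name to 0% to 45.5% of its 314 cells, 0% with 15 principal components. In its larger cluster, led by Zic4, the mean log2 fold of Sp8 interneuron markers (1.65) was close to that of basal forebrain markers (1.84). Ephb3, Ntng1, Robo3, Epha8, Ntng2, Ntn4 and Epha10 stayed under 20 CPM in every class of over 50 cells.

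Positions matter for a few genes. Within the last 1000 bases of each gene in GENCODE M21, where tags of this kind of library usually fall, 4 of the 37 genes overlap another gene: Ntn3 with Tbc1d24 on the same strand, and Ephb1 with 9630041A04Rik, Ephb4 with Zan and Unc5a with Hk3 on the opposite strand. The counting rule for such reads is not given in the sources used here, so values of these 4 genes may include reads of the partner.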

How the data were processed

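Per the labels, single cells from embryonic day 15.5 forebrain of CD1 wild-type mice were made into libraries with a droplet kit. The authors deposited 1 matrix of raw UMI counts per gene and cell. Per the submitters' processing notes the reads were placed on mm10. Which aligner, counter and cell filter were applied is not given in the sources used here. All 16 samples form 1 group and no column belongs to another sample. Cell names carry no barcode, so barcodes shared between libraries could not be counted.

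Counts per cell were scaled to 10000, logged, and reduced from 2000 variable genes (members and pathway lists left out) to 30 principal components. Cells were joined to 15 neighbours and clustered with Leiden at resolution 1. No doublets were removed, and 4 cells with over 10% globin UMIs were set apart, leaving 5773. A cluster took the list (of 22, with 185 genes) whose markers had the highest mean log2 fold over the other cells. It kept the name if that mean reached 0.5, at least 3 markers were 1.5-fold higher on 10 UMIs or more, and 1 of the list was among its 20 leading genes. No other list might have more markers among its first 10 genes, and its first gene might not mark another list only. By this rule 4 clusters stayed unnamed, 2 of them led by dividing-cell genes, of which 1 raised all 16 radial glia markers. UMIs were summed per class and divided by its total, and ratios carry an exact conditional binomial 95% interval, levels a Poisson and shares a Clopper-Pearson one. A call needed 50 UMIs over the pair of classes and 1.5-fold, and a class at 0 was set to 3 UMIs. Cells held 1111 to 17398 UMIs. Members past these limits were named in each comparison, and of each pathway list the leading gene in each direction in excitatory neuron-like over radial glia-like cells. The script was tested on simulated data.

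Members, gene lists and comparisons were chosen with earlier results of these data known. Alternatives changed the run of cells, count minimum, clustering settings, features, doublet removal and a split of the UMIs. The handling of unnamed and of low-depth clusters was varied after seeing the data. Proteins were not analysed here, and 1 pathway list is not reported here. Dcc, Efnb3, Ntn1, Slit1 and Unc5d had no entry in the promoter table. Software was Python 3.11.15 with numpy 2.4.6, scipy 1.17.1, pandas 2.3.3, scikit-learn 1.9.0, python-igraph 0.11.9, leidenalg 0.10.2 and matplotlib 3.10.9.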

Additional observations from a re-analysis of the deposited data

How the results depend on the processing

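No paired analysis was possible because all samples form 1 group in a pooled matrix. Ratios cover counting error only, classes depend on cluster borders, and low members rest on few UMIs. Among counts of members recomputed under 13 alternatives, 194 stayed within 1.5 times the reported count and 35 did not. The number of members measured and the share over all genes can change with the setting. They are not given beside the counts below, so those counts alone do not show a change in the members. The cause of the changes below was not tested. In excitatory neuron-like over radial glia-like cells, members lower were 9 with genes of at least 10 UMIs and 8 with unnamed clusters given their best class, and Efna5 had a log2 ratio of -0.15 with clusters from 50% of the UMIs. In intermediate progenitor-like over radial glia-like cells, members higher were 5 in the first run, 5 in the second and 5 with 50% of the UMIs, and members lower were 8 with 10 UMIs and 5 with unnamed clusters placed. In migrating over intermediate progenitor-like cells, members higher were 7 in the second run, 7 at resolution 0.5, 7 with 1000 variable genes and 6 with 15 components, and members lower were 5 with 10 UMIs. There Dcc had -0.30 at resolution 0.5 and -0.16 with 1000 genes, and Epha7 -0.11 and -0.45. Efna5 had -1.61 with 15 components and -0.40 with unnamed clusters placed. It had -0.20 with the 5% of cells highest in doublet score removed. In excitatory neuron-like over migrating cells, members higher were 7 with 10 UMIs, 7 at resolution 2 and 7 without the cells of high doublet score. Efna5 had -0.014 with 1000 genes. In upper over deep layer cells, members lower were 3 in the first run and 9 with 10 UMIs. In ganglionic eminence progenitor-like over radial glia-like cells, members higher were 1 in the second run and 2 with 50% of the UMIs. They were 5 without the cells of high doublet score. Members lower there were 5 with 10 UMIs, 6 at resolution 0.5, 8 with 15 components and 5 with guidance genes as features. They were also 5 without the cells of high doublet score and 5 with 50% of the UMIs. Dcc had -0.44 in the second run, and Ntn1 -1.43 with 15 components and -1.21 with 50% of the UMIs. In interneuron-like over ganglionic eminence progenitor-like cells, members higher were 8 with 10 UMIs, and lower 1 in the second run, 2 with 15 components and 3 with 50% of the UMIs. In striatal over ganglionic eminence progenitor-like cells, members lower were 2 with 50% of the UMIs. In striatal over interneuron-like cells members lower were 2 at resolution 2 and 2 with guidance genes as features. They were also 2 without the cells of high doublet score and 2 with 50% of the UMIs. Efna5 had 0.093 at resolution 2. Resolution 0.5 gave no upper layer class, and the second run held too few striatal cells for a value.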

Other observations

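Of the 4 unnamed clusters, 2 were led by dividing-cell genes and 2 by neuronal ones. The cluster led by Crym and Cyp26b1 (118 cells) held Dcc at 707 CPM (646.5 to 772), Epha4 at 772 CPM and Neo1 at 480 CPM (430.2 to 534). The cluster led by Nts (187 cells) held Efnb2 at 745 CPM (685 to 808) and Neo1 at 479 CPM, with Epha4 at 107 CPM. Both Neo1 levels lay above those of the 13 named classes, of which Cajal-Retzius cell-like cells were highest at 289.5 CPM.

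Within the basal forebrain class, whose name few of its cells kept under other clusterings, a cluster led by Lhx8 (85 cells, all in the first run) held Dcc at 741 CPM (641 to 852), Efnb3 at 415 CPM (342 to 500.2) and Robo1 at 329 CPM. The other cluster, led by Zic4 and with Sp8 and Adarb2, 2 Sp8 interneuron markers, among its 10 leading genes (229 cells), held Dcc at 324 CPM, Efnb3 at 272.5 CPM (234 to 316) and Robo1 at 150.2 CPM.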
